A study of Mus musculus with 9 samples.

Results

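The comparison described here is suramin given together with LPS against LPS alone in MH-S, a cell line derived from mouse alveolar macrophages. It rests on 6 of the 9 libraries of the study: 3 labelled LPS, from cells given 1 μg/ml lipopolysaccharide for 4 h, and 3 labelled SUR, which the treatment protocol describes as 200 μM suramin together with 1 μg/ml LPS for 4 h. The remaining 3 libraries, labelled CON, came from cells that received medium only; they did not enter the fit and their levels are given beside the others as context. All genes of the deposited gene table were considered: 11157 of the 14771 listed genes held enough counts to be tested, and 3614 were not tested. MH-S is 1 cell line, all groups share its medium with serum and mercaptoethanol, and nothing in the labels says whether libraries of a group came from separate cultures, so p-values measure the spread between these libraries, which may be technical. The labels of the SUR samples name suramin only, and no library received suramin without LPS; a change that opposes LPS and an effect of suramin by itself cannot be told apart. In bulk RNA, fewer cells of a kind and less RNA per cell cannot be told apart either.

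LPS, a component of the outer membrane of Gram-negative bacteria, is bound by CD14 and by the receptor TLR4 on macrophages. From the plasma membrane TLR4 signals through MyD88 to NF-kappaB and the MAP kinases, which induce cytokines and chemokines, and from endosomes it signals through TRIF to IRF3, which induces interferon beta. Interferon beta then acts back on the cell through its receptor and induces a further set of antiviral genes. Suramin is a large polysulfonated drug used against trypanosomes, which also blocks receptors for extracellular nucleotides and keeps several growth factors from their receptors.

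The libraries held 15729402 to 16675250 estimated counts in these 6 samples, and at least 99.956% of them lay in tested genes. The first principal component (54.5% of the variance) separated LPS from SUR, and the second (34.7%) separated the libraries numbered 1 from the rest. All 14 macrophage and monocyte markers were tested, with a summed level of 7420 to 10600 CPM (counts put on a common scale for library size) in LPS and 6490 to 9360 CPM in SUR. Of 12 alveolar macrophage markers, 7 were listed and only Fabp4 and Itgax were tested; Pparg, Marco, Siglecf, Chil3 and Plet1 were at or near 0 in every library, and the summed level was 11.7 to 18.5 CPM in LPS and 10.8 to 13.9 CPM in SUR. None of 10 epithelial and none of 12 lymphocyte and neutrophil markers was tested, and their sums stayed at or under 0.567 and 0.349 CPM in LPS and SUR. Of 10 fibroblast and endothelial markers 1 was tested, Vwf, the von Willebrand factor gene, at 91.9, 241 and 243 CPM in LPS and 88, 237 and 236 CPM in SUR. The list's sum was 92.5 to 244 CPM in LPS and 89.3 to 237 CPM in SUR, lowest in the libraries numbered 1 of both groups.

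With suramin the deepest falls were in chemokine, cytokine and interferon-stimulated genes such as Ifit1 (44.5-fold), Ccl4 (20.3-fold) and Cxcl10 (18.3-fold). The largest rises at comparable levels were those of Arrdc3 (4.53-fold), Klf10 (4.23-fold) and Txnip (3.92-fold). At an adjusted p under 0.05 (quasi-likelihood test of edgeR, replicate number as block, Benjamini-Hochberg adjustment over the 11157 genes), 2827 genes (25.3% of those tested) were higher and 2990 (26.8%) were lower with suramin, together 52.1%; without the block the counts were 890 and 798. These counts depend on scaling: upper-quartile scaling gave 4064 higher and 1695 lower genes and a test on log2(FPKM + 0.1) gave 4710 and 1162. Among calls of at least 2-fold, 285 genes (2.55%) were higher and 292 (2.62%) were lower, together 5.17%, against 225 and 256 without the block. The 292 lower genes had a median log2 fold change of -1.58, and the 285 higher genes one of 1.27. Libraries of the groups did not overlap in 281 of the lower and 265 of the higher genes, where 17.2% and 17.8% of all tested genes did not overlap in these directions. The calls come from these same libraries, so the lack of overlap is not separate support for them. Counts of at least 2-fold are the ones used below, since 52.1% of all tested genes passed at any fold.

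**Figure D1:**
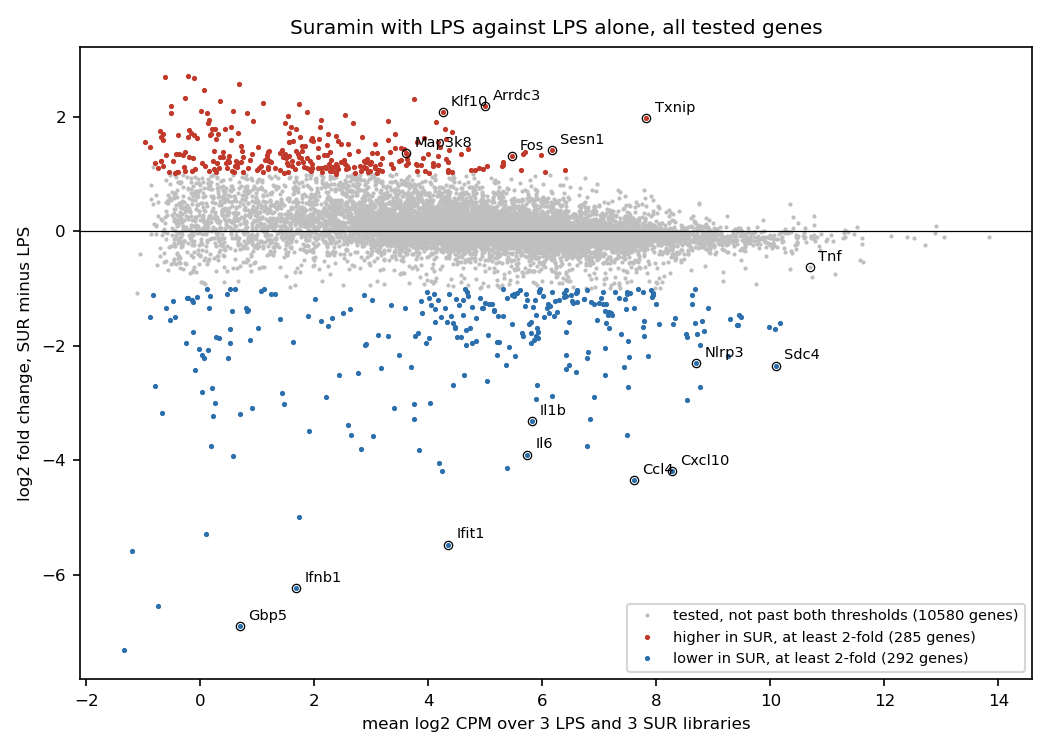
Each point is 1 of the 11157 tested genes, with the mean log2 CPM over the 6 libraries on the x axis and the log2 fold change (SUR minus LPS) on the y axis; red and blue mark the 285 and 292 genes called at least 2-fold higher or lower, and circles mark named genes. The falls reach past -4 among genes of high level such as Ccl4 and Cxcl10, while the rises of abundant genes end near Arrdc3, Klf10 and Txnip.

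The inflammatory cytokines formed one of the lists with the largest median fall. Of 24 listed, 17 were tested and 12 fell at least 2-fold, with a median log2 fold change of -2.19 against -0.01 over all tested genes. Il6 (chr5:30013114-30019975, plus strand, GRCm38), which encodes a cytokine of the acute phase, was at 246, 179 and 204 CPM in LPS and at 11.2, 11.5 and 19.4 CPM in SUR. The groups did not overlap, the log2 fold change was -3.90 (SE 0.0936, adjusted p = 1.19e-20), and the CON libraries held 17, 3.72 and 0.176 CPM. Il12b, a subunit shared by interleukins 12 and 23, was at 4.55, 4.82 and 5.06 CPM in LPS and at 0.17, 0.0582 and 0.115 CPM in SUR. Its log2 fold change was -5.30 (SE 0.328, adjusted p = 1.86e-12), and the partner subunit gene Il23a fell by 3.57 (adjusted p = 9.59e-19). Csf3, the granulocyte colony-stimulating factor, fell from 2.12, 6.56 and 7.53 CPM to 0.283, 0.233 and 0.518 CPM, a log2 fold change of -3.93 (adjusted p = 1.47e-11). SUR levels of Il12b and Csf3 were near 0, so the sizes of these falls rest on few counts. Il27 fell by 3.50 on the log2 scale (adjusted p = 2.05e-14) and Il1a, an alarmin, by 3.81 (adjusted p = 4.33e-21). Csf1, the macrophage colony-stimulating factor, was the most abundant of the at least 2-fold falls among cytokines, at 949, 1455 and 1263 CPM in LPS and 322, 429 and 416 CPM in SUR, a log2 fold change of -1.64 (adjusted p = 1.69e-21).

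Tnf was 1 of 5 tested cytokines that did not fall 2-fold, beside Il15, Il18, Ebi3 and Il10; Tnf and Il10 were singled out after their values were seen. Tnf, the early inflammatory cytokine of macrophages, was at 1900, 1969 and 2313 CPM in LPS and at 1305, 1141 and 1572 CPM in SUR, against 398, 90.7 and 21.8 CPM in CON. The groups did not overlap, and the fall was 1.55-fold (log2 fold change -0.63 with SE 0.0366, adjusted p = 5.5e-13), and with the CON libraries in the fit the call was lost (adjusted p = 0.412). Il10, an anti-inflammatory cytokine, was at 1.62, 0.737 and 1.56 CPM in LPS and at 2.15, 0.699 and 0.749 CPM in SUR. These ranges overlapped (log2 fold change -0.13 with SE 0.299, adjusted p = 0.748).

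Of 20 chemokines listed, 15 were tested and 11 fell at least 2-fold, with a median log2 fold change of -2.94. Ccl4, which attracts monocytes and T cells, was at 876, 963 and 803 CPM in LPS and at 39.2, 41.5 and 49.4 CPM in SUR. It fell 20.3-fold (log2 fold change -4.34 with SE 0.0612, adjusted p = 8.23e-25), to between the CON values of 66.5, 19.2 and 4.81 CPM. Ccl3, a related attractant, fell 11.7-fold from 612, 676 and 549 to 45.7, 53.7 and 56.9 CPM (adjusted p = 6.44e-24). The monocyte attractants of the CCR2 axis fell less: Ccl2 went from 807, 1277 and 1069 to 104, 146 and 156 CPM, a 7.75-fold fall (adjusted p = 4.12e-24). Ccl7 fell 7.67-fold (adjusted p = 7.13e-24) and Ccl12 9.1-fold (adjusted p = 3.48e-10). The differences among these chemokines were not tested. Ccl22, a ligand of CCR4, had only 21, 19 and 19 counts in LPS and 0, 0 and 1 count in SUR. Among the receptors for chemokines and cytokines, 24 tested with a median of 0.08, 1 gene fell and 1 rose at least 2-fold. Ccrl2, which binds the attractant chemerin without signalling, fell from 195, 188 and 207 to 24.6, 21.8 and 34.6 CPM (log2 fold change -2.87, adjusted p = 2.09e-21). Ccr2 itself was at 0.374, 1.54 and 1.1 CPM in LPS and 1.59, 2.74 and 2.71 CPM in SUR, a log2 fold change of 1.23 (adjusted p = 0.000364), and this call was lost without the block (adjusted p = 0.138).

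**Figure D2:**
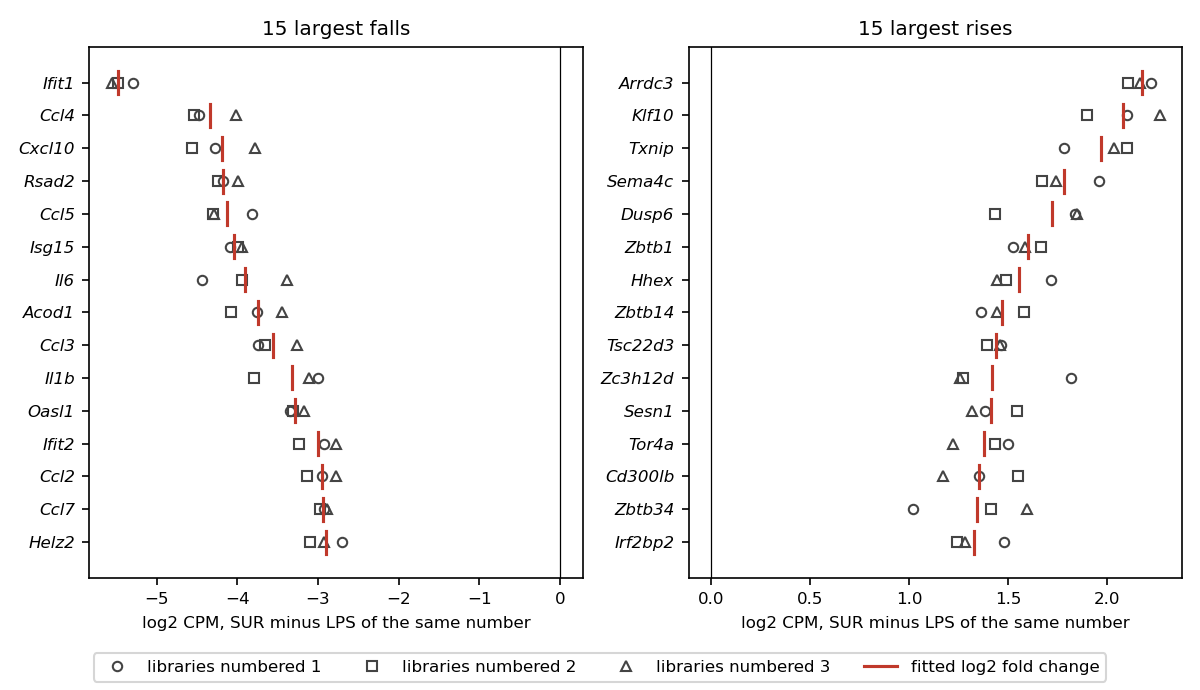
Log2 CPM of each SUR library minus that of the LPS library of the same number, for the 15 largest falls (left) and 15 largest rises (right) among genes whose mean log2 CPM was 4 or more; symbols give the library number and red bars the fitted log2 fold change. Only genes whose groups did not overlap were eligible, so all 3 differences lie on the same side of 0 by that choice.

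The NF-kappaB list, 34 genes induced by NF-kappaB or feeding back on it, had the highest share of falls of at least 2-fold among the lists: 32 were tested, 25 fell by as much, and the median was -1.55. Acod1, which makes itaconate, was at 402, 402 and 405 CPM in LPS and at 29.7, 23.7 and 37.1 CPM in SUR. Its log2 fold change was -3.74 (SE 0.0648, adjusted p = 2.68e-23). Traf1, an adaptor of TNF receptors, fell by 3.28 on the log2 scale (adjusted p = 1.12e-19), Ptgs2, the inducible cyclooxygenase, by 2.20 (adjusted p = 3.86e-22) and Malt1, a paracaspase upstream of NF-kappaB, by 2.04 (adjusted p = 2.29e-22). Sdc4, a heparan sulfate proteoglycan of the cell surface, was the most abundant of the 25, at 2762, 2256 and 2381 CPM in LPS and 514, 432 and 506 CPM in SUR; CON held 367, 134 and 72.7 CPM. The log2 fold change of Sdc4 was -2.35 (SE 0.0348, adjusted p = 2.01e-24). Nfkbiz, a nuclear IkappaB protein, went from 1893, 1978 and 1979 to 596, 555 and 647 CPM (log2 fold change -1.71, adjusted p = 7.84e-22). Tnfaip3, the deubiquitinase A20 that limits the pathway, went from 1206, 1112 and 1174 to 442, 357 and 479 CPM (log2 fold change -1.46, adjusted p = 5.03e-19, or 0.0602 with CON in the fit). Both stayed well above CON, where Tnfaip3 was at 191, 43.9 and 8.91 CPM. Nfkbia, the inhibitor IkappaB alpha and a fast NF-kappaB target, was singled out after its values were seen: it was at 616, 682 and 798 CPM in LPS and 494, 510 and 635 CPM in SUR. The groups overlapped, the log2 fold change was -0.36 (SE 0.0314, adjusted p = 1.19e-09), and the call was lost without the block (adjusted p = 0.126) and with CON in the fit (adjusted p = 0.554).

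**Figure D3:**
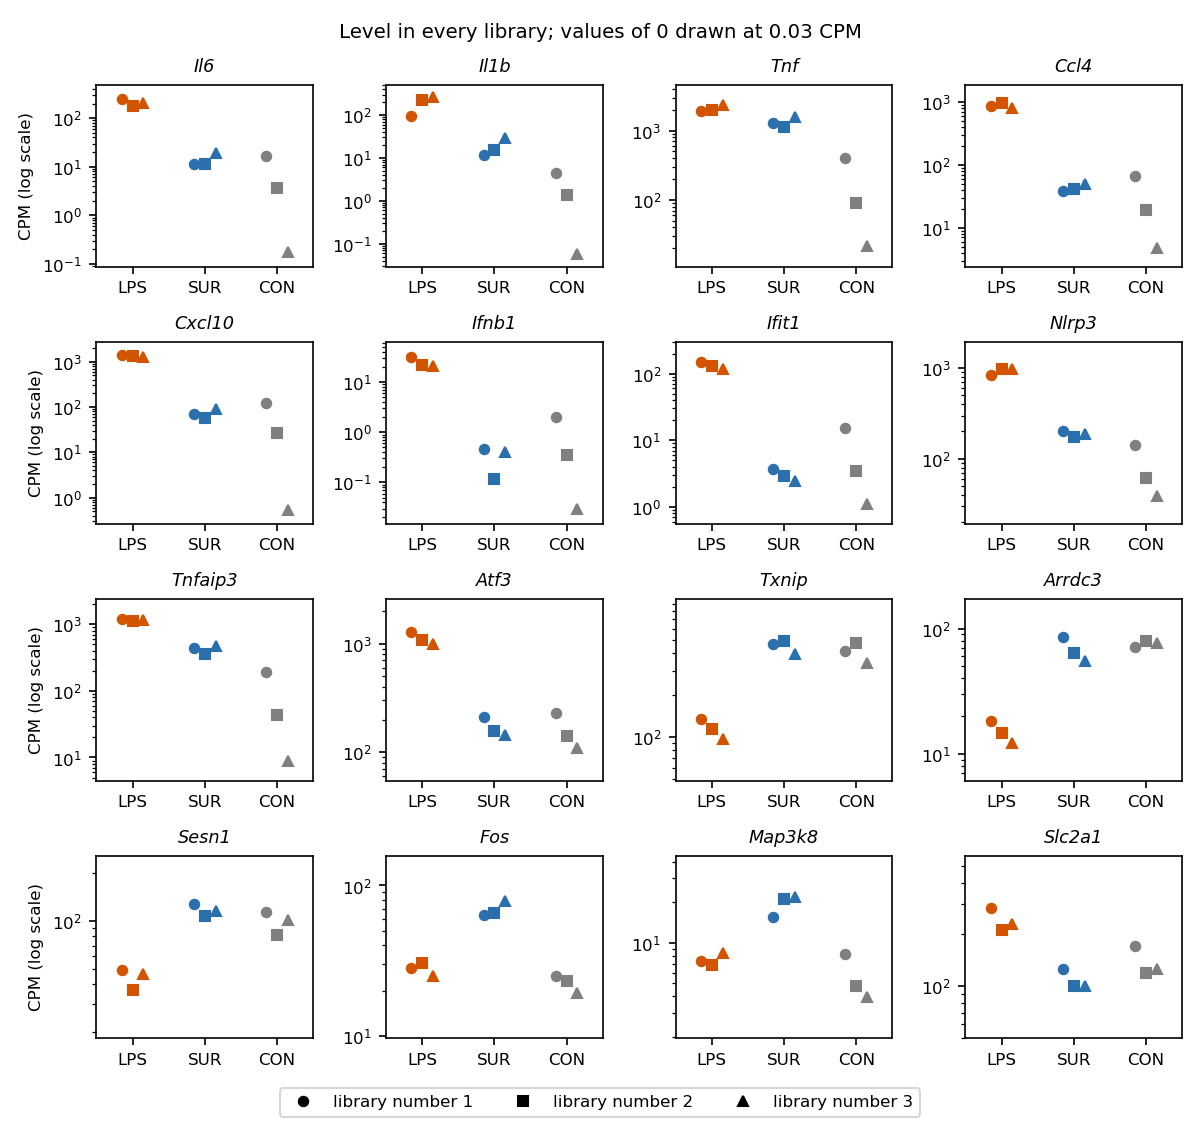
CPM on log axes in every LPS, SUR and CON library for 16 genes, with symbols for the library number. Il6, Ccl4, Cxcl10, Ifnb1 and Ifit1 sit far lower in SUR than in LPS, Tnf only slightly lower, and Txnip, Arrdc3, Sesn1, Fos and Map3k8 higher.

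Components of TLR4 signalling moved in both directions. Of the 31 tested, 5 fell and 1 rose at least 2-fold, with a median of -0.11. Cd14, the LPS co-receptor, fell from 747, 777 and 810 to 219, 203 and 254 CPM (log2 fold change -1.79 with SE 0.0393, adjusted p = 2.09e-21). Mapkapk2, the kinase below p38 that stabilises cytokine mRNAs, went from 1669, 1963 and 1786 to 535, 588 and 566 CPM, beside 579, 483 and 460 CPM in CON. Its log2 fold change was -1.68 (adjusted p = 7.12e-23). Irak2 fell by 1.47 (adjusted p = 1.36e-16), Ticam1, which encodes TRIF, by 1.09 (adjusted p = 1.18e-14) and Rela, the p65 subunit of NF-kappaB, by 1.08 (adjusted p = 1.68e-17). The gene that rose was Map3k8, the kinase TPL2 that links TLR4 to ERK: 7.36, 6.83 and 8.44 CPM in LPS and 15.5, 21.1 and 22 CPM in SUR. This was a log2 fold change of 1.36 (with SE 0.0996, adjusted p = 4.22e-11), and all 3 SUR libraries were above all CON libraries, at 8.28, 4.8 and 3.93 CPM. Tlr4, the receptor, was singled out after its values were seen; it was at 48.4, 52.6 and 51.2 CPM in LPS and 55.9, 71.2 and 69.1 CPM in SUR. Its log2 fold change of 0.36 (adjusted p = 2.36e-06) was not called without the block (adjusted p = 0.0582). Tlr2, which senses bacterial lipoproteins, fell from 1144, 1259 and 1247 to 311, 402 and 477 CPM (log2 fold change -1.64, adjusted p = 3.59e-18).

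Interferon beta itself was among the deepest falls. Ifnb1 (chr4:88522025-88522794, minus strand) was at 32, 22 and 21 CPM in LPS and at 0.454, 0.116 and 0.403 CPM in SUR, beside 2.01, 0.36 and 0 CPM in CON. The log2 fold change was -6.23 (SE 0.173, adjusted p = 2.1e-19), and its size rests on few counts in SUR. In the list for interferon induction and signalling, 4 of 27 tested genes fell at least 2-fold, with a median of -0.13 and a highest log2 fold change of 0.62. The other 3 were Ticam1, Jak2, a kinase of cytokine receptors, with a log2 fold change of -1.09 (adjusted p = 7.38e-13), and Ikbke, a kinase that phosphorylates IRF3, with -1.07 (adjusted p = 7.18e-17).

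The interferon-stimulated genes split, but the list was not limited to genes that LPS raised here: levels of Bst2 overlapped between LPS and CON. Of 60 listed, 50 were tested and 21 fell at least 2-fold, and the median was -0.29; at any fold 29 were lower and 5 higher (2 higher without the block). Ifit1, an antiviral protein that binds viral RNA, was at 151, 132 and 119 CPM in LPS and at 3.74, 2.85 and 2.42 CPM in SUR, beside 15.2, 3.42 and 1.11 CPM in CON. Its 44.5-fold fall (log2 fold change -5.47 with SE 0.0713, adjusted p = 2.67e-25) was the largest among genes whose mean log2 CPM was 4 or more. Ifit3 fell 31.6-fold (adjusted p = 2.96e-17), Rsad2, the antiviral enzyme viperin, 18.1-fold (adjusted p = 2.68e-23) and Ifit2 8.01-fold (adjusted p = 1.95e-19). Isg15, a ubiquitin-like modifier, went from 79, 68.4 and 70.5 to 4.54, 4.19 and 4.49 CPM, a 16.5-fold fall (adjusted p = 6.05e-23). Oasl1, of the oligoadenylate synthetase family, went from 345, 398 and 321 to 33.8, 40 and 35.5 CPM, a 9.73-fold fall (adjusted p = 2.67e-25), and Helz2, a helicase, fell 7.46-fold (adjusted p = 3.93e-23). Cxcl10, a chemokine induced by interferon and by NF-kappaB, went from 1386, 1340 and 1267 to 71.6, 56.5 and 92.1 CPM, an 18.3-fold fall (adjusted p = 1.13e-22). Ifit3b had 39, 34 and 43 counts in LPS and 1, 0 and 0 counts in SUR; it is a close copy of Ifit3, so the split of counts between them is uncertain. In the other part of the list, Bst2, which tethers budding viruses, was singled out after its values were seen: it was at 65.4, 51 and 52.2 CPM in LPS and 59, 54.1 and 53.1 CPM in SUR, beside 60.6, 65 and 54.4 CPM in CON. Its log2 fold change was -0.02 (SE 0.0511, adjusted p = 0.799), and its groups overlapped; on log2(FPKM + 0.1), where the median of all genes was 0.13, it was called higher at 0.15 (adjusted p = 0.037).

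Promoter sequences are shown for genes at both ends of these responses, from the 250 bases before the annotated start in RefSeq on GRCm38.p6, 5′ to 3′ on the gene's strand, with motif matches in capitals. The first 3 belong to interferon-stimulated genes and were searched on both strands for the core of the interferon-stimulated response element, which is GAAA, any 2 bases and GAAA again. Ifit1 (chr19:34640639-34640888, plus strand) has 2 matches, Isg15 (chr4:156200819-156201068, minus strand) has 3 that overlap, and Bst2 (chr8:71537473-71537722, minus strand) has 2 that overlap.
Ifit1: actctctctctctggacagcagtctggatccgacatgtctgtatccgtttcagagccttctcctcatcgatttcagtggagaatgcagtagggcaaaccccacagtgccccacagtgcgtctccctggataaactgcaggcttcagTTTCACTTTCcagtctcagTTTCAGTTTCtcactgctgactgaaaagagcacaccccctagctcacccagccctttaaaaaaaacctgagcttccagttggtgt
Isg15: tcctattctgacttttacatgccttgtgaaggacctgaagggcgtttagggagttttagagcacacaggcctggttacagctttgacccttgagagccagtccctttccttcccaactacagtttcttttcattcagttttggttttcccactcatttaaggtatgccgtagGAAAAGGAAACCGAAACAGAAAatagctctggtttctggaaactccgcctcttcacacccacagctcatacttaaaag
Bst2: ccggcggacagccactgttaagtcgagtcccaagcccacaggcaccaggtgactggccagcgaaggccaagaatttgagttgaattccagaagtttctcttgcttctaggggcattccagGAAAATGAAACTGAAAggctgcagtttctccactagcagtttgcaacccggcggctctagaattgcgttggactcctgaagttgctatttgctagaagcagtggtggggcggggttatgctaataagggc
The other 3 were searched on both strands for a kappaB type motif, which is GGGA, any 4 bases and CC. Ifnb1 (chr4:88522795-88523044, minus strand), Cxcl10 (chr5:92348890-92349139, minus strand) and Nfkbia (chr12:55492648-55492897, minus strand) each have 2 matches.
Ifnb1: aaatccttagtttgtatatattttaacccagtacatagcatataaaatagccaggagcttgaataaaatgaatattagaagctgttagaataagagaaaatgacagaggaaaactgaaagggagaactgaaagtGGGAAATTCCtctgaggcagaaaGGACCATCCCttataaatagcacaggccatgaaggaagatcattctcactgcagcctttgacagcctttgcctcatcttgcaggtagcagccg
Cxcl10: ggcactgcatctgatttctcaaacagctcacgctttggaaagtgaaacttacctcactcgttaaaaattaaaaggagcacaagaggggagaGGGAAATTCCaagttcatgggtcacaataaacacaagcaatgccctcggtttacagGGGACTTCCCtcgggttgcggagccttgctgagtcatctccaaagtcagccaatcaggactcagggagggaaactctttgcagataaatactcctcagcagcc
Nfkbia: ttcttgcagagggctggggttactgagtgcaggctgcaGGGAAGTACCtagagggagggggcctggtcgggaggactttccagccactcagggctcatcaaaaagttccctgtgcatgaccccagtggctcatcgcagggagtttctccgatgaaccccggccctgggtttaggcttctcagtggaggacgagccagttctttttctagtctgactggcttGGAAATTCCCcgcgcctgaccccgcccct
The matches begin 104 and 85 bases before the start of Ifit1, 78, 72 and 66 before that of Isg15, and 130 and 124 before that of Bst2. Those of kappaB type begin 116 and 93 bases before the start of Ifnb1, 159 and 103 before that of Cxcl10, and 212 and 29 before that of Nfkbia. Bst2 and Ifit1 carry the same number of interferon element matches with log2 fold changes of -0.02 and -5.47. Levels of Bst2 overlapped between LPS and CON, and those of Ifit1 did not. Nfkbia and Cxcl10 carry the same number of kappaB type matches with -0.36 and -4.19. Bst2 and Nfkbia were chosen after their values were seen, and whether the matches bear on these changes was not tested. Sequences were marked only for the motif searched in them. That of Cxcl10 also holds gaaagtgaaa, a match to the interferon element, and those of Ifnb1 and Nfkbia hold no such match.

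A window of 300 bases, 250 before and 50 after the start, was available for 9041 of the 11157 tested genes. A gene was counted as holding a motif if any of its windows did, while shares of all windows count each window. These 2 kinds of share are not the same measure. The interferon element was held by 3.88% of the tested genes with a window and by 3.44% of all 32851 windows of the RefSeq table. Among genes with a window, 24 of 230 (10.4%) that were at least 2-fold lower held it, and 5 of 230 (2.17%) at least 2-fold higher. Within the interferon-stimulated list, 11 of 19 members that fell at least 2-fold held it (57.9%), as did 15 of the 23 other members (65.2%). The kappaB type motif was held by 30.2% of tested genes (20.7% of all windows), 40.9% of the lower set and 33.5% of the higher set. TGANTCA, the site bound by AP-1, was held by 5.99% of tested genes (7.81% of all windows), 13.9% of the lower set and 5.22% of the higher set. CACGTG, the E-box used by MondoA and MYC, was held by 12.1% of tested genes (7.15% of all windows), 10.4% of the lower and 7.83% of the higher set. A match says only that these letters are present.

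Genes of the inflammasome, the complex that cleaves interleukin 1 beta and opens gasdermin D pores, did not move as 1 block. Of 30 tested, 4 fell and 1 rose at least 2-fold, with a median of -0.01. Nlrp3 (chr11:59541569-59566955, plus strand), the sensor, was at 834, 979 and 972 CPM in LPS and at 201, 174 and 186 CPM in SUR, beside 140, 61.9 and 38.5 CPM in CON. It fell 4.95-fold (log2 fold change -2.31 with SE 0.0516, adjusted p = 2.84e-21) with no overlap. Il1b, its substrate, was at 96.6, 219 and 258 CPM in LPS and at 12, 15.7 and 29.7 CPM in SUR, a 9.96-fold fall (log2 fold change -3.32 with SE 0.08, adjusted p = 1.28e-20). Gbp5 and Gbp2, guanylate-binding proteins that target bacterial membranes, fell with adjusted p = 3.95e-17 and 1.96e-14 and are uncertain because of their close relatives. The log2 fold change of Gbp5 was -6.90 (SE 0.249) and Gbp2 fell 7.44-fold. Gbp5 was at 9.22, 13.3 and 14.5 CPM in LPS and at 0.0567, 0.116 and 0.115 CPM in SUR. With SUR levels this near 0, the size of the Gbp5 fall rests on few counts.

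The remaining core components had smaller differences. Casp1, the inflammatory caspase, was at 52.9, 62.3 and 58.9 CPM in LPS and 46, 58.5 and 55.7 CPM in SUR, which overlapped (log2 fold change -0.12, adjusted p = 0.0377). Casp4, the mouse caspase that binds LPS in the cytosol, was at 30.4, 31.4 and 32.3 CPM in LPS and 27.8, 28.8 and 26.5 CPM in SUR (log2 fold change -0.18, adjusted p = 0.0174). Neither call held without the block (adjusted p = 0.553 and 0.16), and that of Casp1 was lost when any 1 replicate number was left out (adjusted p = 0.068 to 0.195). The calls of Casp1 and Casp4 were also lost under upper-quartile scaling (adjusted p = 0.591 and 0.222) and with DESeq2 (adjusted p = 0.276 and 0.222), and that of Casp4 with CON in the fit (adjusted p = 0.0878) and without replicate 3 (adjusted p = 0.223). Gsdmd, the pore protein, was at 45.2, 55.7 and 60 CPM in LPS and 42.9, 54.1 and 58.1 CPM in SUR (log2 fold change -0.05 with SE 0.0476, adjusted p = 0.367). Pycard, the adaptor ASC, had a log2 fold change of 0.10 (with SE 0.0923, adjusted p = 0.396) between 12, 15.3 and 15.7 CPM and 10.1, 18.2 and 18.1 CPM. Il18, the other cytokine that caspase 1 cleaves, had one of -0.32 (SE 0.17, adjusted p = 0.118) between 3.18, 4.02 and 4.35 CPM and 2.95, 3.38 and 2.88 CPM. The groups overlapped in all 3 of these genes. Txnip, which binds thioredoxin and NLRP3, was the member of this list that rose.

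**Figure D4:**
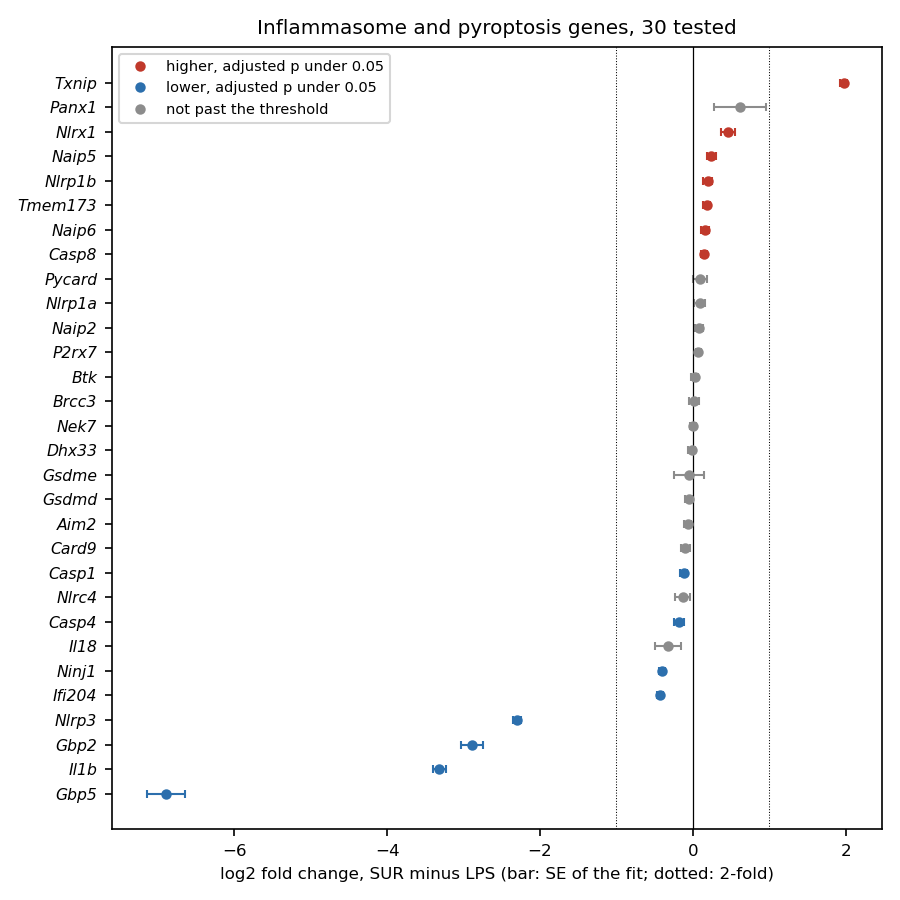
Log2 fold change (SUR minus LPS) of the 30 tested inflammasome and pyroptosis genes, with bars of 1 SE from the fit and dotted lines at 2-fold. Gbp5, Il1b, Gbp2 and Nlrp3 lie left of the lower dotted line, Txnip right of the upper one, and Casp1, Casp4, Gsdmd, Pycard and Il18 between them.

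Immediate-early genes and the feedback genes of MAP kinases showed movement both ways: of 51 tested, 16 fell and 3 rose at least 2-fold, with a median of -0.38. Atf3, a stress-induced repressor, was at 1294, 1087 and 994 CPM in LPS and at 213, 158 and 146 CPM in SUR (log2 fold change -2.72 with SE 0.0371, adjusted p = 5.32e-25). The phosphatase genes Dusp8 and Dusp16, which act on JNK and p38, fell by 3.79 (adjusted p = 1.01e-18) and 2.34 (adjusted p = 8.16e-17) on the log2 scale. Myc fell by 2.82 (adjusted p = 6.25e-12), from 2.93, 9.98 and 9.74 to 0.51, 1.57 and 1.09 CPM, and Gadd45a by 2.03 (adjusted p = 3.3e-18). Against these, Dusp6, a phosphatase of ERK, went from 14.8, 12.4 and 8.57 to 53.4, 33.9 and 31.1 CPM (log2 fold change 1.72 with SE 0.0782, adjusted p = 3.89e-15). Klf10, a repressor induced by TGF-beta, went from 11.4, 11.1 and 5.97 to 49.3, 41.8 and 29.2 CPM (log2 fold change 2.08 with SE 0.0771, adjusted p = 6.83e-17). Fos, which encodes an AP-1 subunit, was the other gene of the 3; it and Egr1 were picked out after their values were seen. Fos was at 28.4, 30.4 and 25.1 CPM in LPS and at 64, 65.4 and 78.5 CPM in SUR, above all CON libraries at 24.9, 23.4 and 19.4 CPM. Its log2 fold change was 1.31 (SE 0.0706, adjusted p = 1.23e-13), and that of Egr1, another ERK target, was 0.97 (SE 0.0646, adjusted p = 8.12e-12).

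Targets of FoxO and MondoA, factors of growth factor withdrawal and of glucose sensing, were the list with the highest share of rises. Of 25 tested, 6 rose and 2 fell at least 2-fold, with a median of 0.34; at any fold 17 were higher and 4 lower (10 and 2 without the block). Txnip (chr3:96557957-96561862, plus strand), which also limits glucose uptake, was at 135, 114 and 96.5 CPM in LPS and at 465, 492 and 396 CPM in SUR, beside 416, 473 and 339 CPM in CON. It rose 3.92-fold (log2 fold change 1.97 with SE 0.0449, adjusted p = 4.11e-21) with no overlap. Arrdc3 (chr13:80883384-80896042, plus strand), an arrestin-like adaptor of membrane proteins, was at 18.4, 14.7 and 12.2 CPM in LPS and at 86.4, 63.8 and 55.3 CPM in SUR. Its 4.53-fold rise (log2 fold change 2.18 with SE 0.0588, adjusted p = 1.17e-19) was the largest among genes whose mean log2 CPM was 4 or more, and CON held 71.9, 80.3 and 76.4 CPM. Sesn1, an inhibitor of mTORC1, rose from 49, 36.8 and 46.3 to 128, 108 and 116 CPM (log2 fold change 1.41, adjusted p = 1.01e-17). Pik3ip1, an inhibitor of PI3 kinase, rose by 1.59 (adjusted p = 2.18e-08). The 2 members that fell were Cited2, a transcriptional coregulator, at 880, 858 and 753 CPM in LPS and 262, 230 and 254 CPM in SUR (log2 fold change -1.74, adjusted p = 1.48e-20), and Bcl6, a repressor, with -1.58 (adjusted p = 5.95e-16). Cdkn1b, the cyclin-dependent kinase inhibitor p27, rose from 16.4, 11.1 and 14.7 to 34.4, 26.3 and 28 CPM (log2 fold change 1.07, adjusted p = 1.54e-11).

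Other genes were among the largest rises with a mean log2 CPM of 4 or more. Sema4c, a semaphorin, rose by 1.78 (adjusted p = 7.54e-16), from 7.04, 12.7 and 12.7 to 27.7, 40.6 and 42.7 CPM. The zinc finger genes Zbtb1, Zbtb14 and Zbtb34 rose by 1.60, 1.47 and 1.34, and Hhex, a homeobox gene, by 1.56. Tsc22d3, the glucocorticoid-induced leucine zipper GILZ, rose by 1.44 (adjusted p = 1.84e-15), from 10.3, 19.9 and 18.2 to 28.8, 52.6 and 50.2 CPM. Zc3h12d, of the regnase family that degrades mRNA, rose by 1.42, Tor4a by 1.38, Cd300lb, a receptor of myeloid cells, by 1.35 and Irf2bp2, a partner of IRF2, by 1.33. Absence of overlap between the groups was part of the rule that chose these genes.

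**Figure D5:**
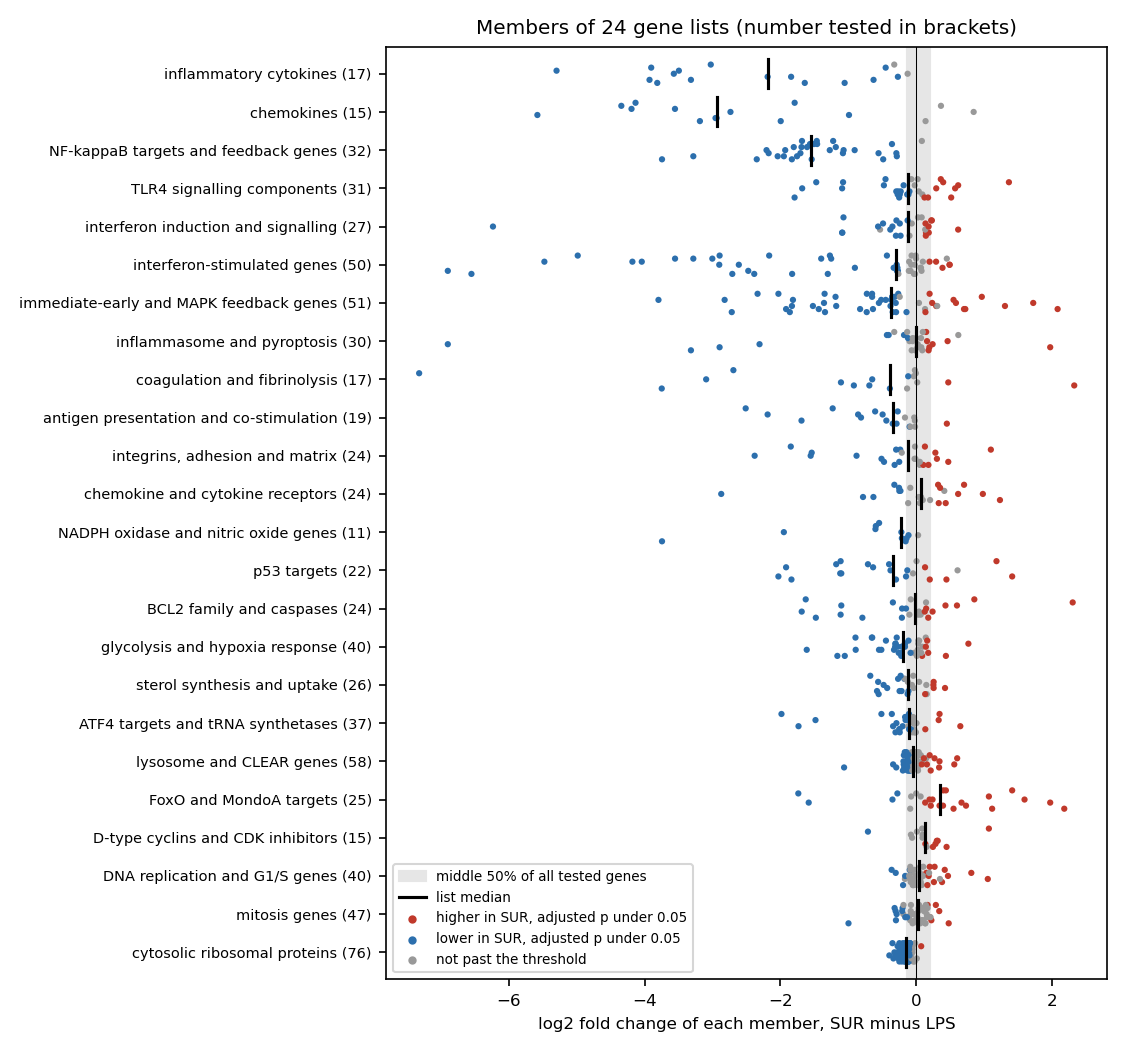
Each point is 1 tested member of 1 of 24 gene lists, placed by its log2 fold change (SUR minus LPS); black bars mark list medians, the grey band the middle 50% of all tested genes (-0.14 to 0.20), and colour the calls at an adjusted p under 0.05. The medians of cytokines, chemokines and NF-kappaB genes lie at -2.19, -2.94 and -1.55, that of FoxO and MondoA targets at 0.34, and most other medians lie within or at the edge of the band.

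Other effectors of the activated macrophage fell in parts. Coagulation and fibrinolysis had 5 falls and 1 rise of at least 2-fold among 17 tested genes, with a median of -0.39, which was the same with Serpinb2 at its bound. F3, tissue factor, fell by 3.09 (adjusted p = 4.37e-11) and Plat, a plasminogen activator, by 3.75 (adjusted p = 3.66e-10). Serpinb2, an inhibitor of plasminogen activators, had 16, 14 and 26 counts in LPS and 0 in all 3 SUR libraries, at least 21-fold lower against a floor of 3 counts over the group. Thbd, thrombomodulin, which limits clotting, was the rise: 0.312, 0.335 and 0.26 CPM in LPS and 1.08, 1.75 and 1.84 CPM in SUR (log2 fold change 2.33 with SE 0.368, adjusted p = 1.17e-05).

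Among 19 tested genes of antigen presentation and co-stimulation, 4 fell at least 2-fold, with a median of -0.35 and a highest log2 fold change of 0.45. Cd40, a co-stimulatory receptor, went from 106, 114 and 107 to 42.6, 27.9 and 30.7 CPM (log2 fold change -1.69 with SE 0.0769, adjusted p = 4.21e-15). Tnfsf9, the ligand of 4-1BB, fell by 2.19 (adjusted p = 4.33e-19), Cd83 by 2.51 (adjusted p = 5.72e-14) and Icosl by 1.23 (adjusted p = 3.8e-18). Adhesion genes had 4 falls and 1 rise of at least 2-fold among 24 tested. Itga5, the fibronectin receptor subunit, went from 580, 769 and 774 to 166, 204 and 219 CPM (log2 fold change -1.85, adjusted p = 6.09e-23), Icam1 fell by 1.54 (adjusted p = 8.63e-20) and Itgav by 1.55 (adjusted p = 2.42e-19). Mmp9, a gelatinase, rose from 2.24, 2.41 and 2.6 to 4.31, 5.76 and 5.53 CPM (log2 fold change 1.10 with SE 0.165, adjusted p = 5.58e-06), above CON at 2.93, 2.52 and 2.87 CPM, while Mmp13, a collagenase, fell by 2.38 (adjusted p = 2.02e-16). Slc7a2, a transporter of arginine, went from 86.3, 120 and 126 to 22.7, 31.6 and 31.4 CPM (log2 fold change -1.95, adjusted p = 1.48e-20). Ptger2, a prostaglandin E2 receptor, fell by 1.06 (adjusted p = 2.49e-10).

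Genes of cell death and of p53 divided by member. In the BCL2 and caspase list, 5 of 24 tested genes fell and 1 rose at least 2-fold. Bmf, which promotes apoptosis, was at 5.3, 5.96 and 6.88 CPM in LPS and at 23.6, 35.2 and 31.3 CPM in SUR (log2 fold change 2.30 with SE 0.0914, adjusted p = 2.73e-16). Bcl2l11, which encodes the related BIM, moved the other way, from 247, 259 and 267 to 79.3, 81.4 and 79.5 CPM (log2 fold change -1.69 with SE 0.0374, adjusted p = 2.61e-21). The protective genes Bcl2a1b and Bcl2a1d fell by 1.63 (adjusted p = 2.28e-16) and 1.48 (adjusted p = 4.84e-13), but they are near-identical copies and their shares of the counts are uncertain. Among 22 p53 targets tested, 7 fell and 2 rose at least 2-fold: Plk2 fell by 1.92 (adjusted p = 2.46e-22) and Fas by 1.84 (adjusted p = 1.19e-13), and Sesn1 and Trp53inp1 rose. Trp53inp1 was at 11.1, 12 and 10.4 CPM in LPS, 24.2, 28.4 and 23.5 CPM in SUR and 13.4, 19.3 and 14.2 CPM in CON (log2 fold change 1.18, adjusted p = 4.88e-12).

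Metabolic, stress and growth lists are set beside the 2.62% of all tested genes that fell and the 2.55% that rose at least 2-fold. In glycolysis and the hypoxia response, 3 of 40 tested genes fell by as much, and the highest log2 fold change was 0.77. Slc2a6, a sugar transporter, went from 220, 252 and 254 to 70.1, 75.6 and 92.6 CPM (log2 fold change -1.61, adjusted p = 1.35e-19). Slc2a1, the glucose transporter GLUT1, went from 286, 213 and 230 to 126, 100 and 99.5 CPM (log2 fold change -1.16 with SE 0.0367, adjusted p = 2.78e-18), beside 171, 120 and 126 CPM in CON. Among stress lists, Ppp1r15a, the phosphatase subunit GADD34, fell by 1.98 (adjusted p = 1.34e-18) and Slc7a11, the cystine transporter, by 1.73 (adjusted p = 1.02e-14), with 3 falls of at least 2-fold among 37 ATF4 targets and tRNA synthetases. Among purinergic receptors and ectonucleotidases, 1 of 14 tested genes fell at least 2-fold. The 17 growth factors and receptors tested lay between log2 fold changes of -0.52 and 0.51. That purinergic gene, Adora2b, an adenosine receptor, was at 12.2, 41.6 and 53.9 CPM in LPS and 6.46, 13.6 and 17 CPM in SUR, which overlapped (log2 fold change -1.51, adjusted p = 9.83e-13); without the block its adjusted p was 0.126. Log2 fold changes lay between -0.68 and 0.42 in sterol synthesis and uptake (26 tested), -0.66 and 0.55 in autophagy (28 tested), -0.50 and 0.86 in the unfolded protein response (26 tested) and -0.997 and 0.48 in mitosis (47 tested). Of 40 DNA replication genes, 1 changed at least 2-fold. Gins3, a subunit of the replicative helicase, was at 4.49, 1.74 and 4.02 CPM in LPS and 7.26, 6.35 and 7.66 CPM in SUR (log2 fold change 1.05, adjusted p = 1.04e-05; 0.0754 without the block).

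The translation lists shifted by small steps. Of 76 cytosolic ribosomal protein genes, 66 were lower and 1 higher at any fold, with a median of -0.15, but without the block 3 were lower. On log2(FPKM + 0.1), 5 were lower and 7 higher, with a median of 0.03, beside a median of 0.13 over all genes on that scale. Of all tested genes, 26.8% were lower and 25.3% higher at any fold. The shift was not particular to translation. Lower at any fold were 30 of 38 proteasome, 33 of 59 oxidative phosphorylation and 10 of 14 housekeeping genes, and 1, 1 and 2 were higher. The medians of these lists were -0.17, -0.12 and -0.11. Of 50 ribosome biogenesis genes, 38 were lower (11 without the block), with a median of -0.19; on log2(FPKM + 0.1), 13 were lower and 3 higher, with a median of -0.04, and the list's median was below 0 under every alternative. Rrs1, a ribosome assembly factor, had the largest of these falls, from 212, 200 and 200 to 128, 111 and 113 CPM (log2 fold change -0.80 with SE 0.0368, adjusted p = 5.62e-15).

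SUR levels of the 577 genes that changed at least 2-fold were set beside the range spanned by LPS and CON. In 40 of the 285 higher genes all 3 SUR libraries lay above all LPS and all CON libraries, and in 5 of the 292 lower genes all 3 lay below both. At a mean log2 CPM of 4 or more these were 6 and 4 genes, named here after their values were seen, with no test against CON. The share of all tested genes with SUR beyond both groups was not counted, so 40 and 5 have no background beside them. The largest ratio of SUR to CON among the 6 was that of Fos, and Nuak2, a kinase related to AMPK, was at 44.2, 63.2 and 75.2 CPM in SUR beside 30.3, 33.7 and 34.9 CPM in CON and 19.4, 29 and 31 CPM in LPS. Id3, an inhibitor of helix-loop-helix factors, was among the 4, at 23.2, 18.3 and 23.3 CPM in SUR beside 33.8, 32.7 and 27.8 CPM in CON and 40.8, 50.6 and 66.7 CPM in LPS. The CON libraries differed among themselves: Cxcl10 was at 122, 26 and 0.527 CPM in CON 1, 2 and 3, so a level near CON is a wide range for genes of this kind.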

How the data were processed

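RNA-seq libraries of MH-S cells were analysed from the deposited gene table, which gives expected counts and FPKM per library. The reads were aligned with HISAT2 2.0.4 to GRCm38 (mm10), per the submitters' processing notes; no source used here gives the counting tool or the strand setting. Of the deposited expected counts, 93.4% were whole numbers, and all were rounded before testing. CPM values are those counts divided by the TMM-adjusted library size. SUR was tested against LPS with edgeR 4.0.16 (R 4.3.3): low counts removed by filterByExpr, TMM factors (0.9498 to 0.966 in LPS, 1.038 to 1.06 in SUR), the quasi-likelihood fit with the replicate number as block, and Benjamini-Hochberg adjustment over 11157 genes at 0.05. Each gene had 2 residual degrees of freedom and a prior of 20.8 shared across genes (common biological coefficient of variation 0.0295), so very small p-values rest on the shared spread. The block was part of the rule for this comparison, and the labels number the libraries alike. Deviations of LPS and SUR libraries from their group means correlated, over genes, at 0.82, 0.57 and 0.61 within numbers 1, 2 and 3. Between numbers 2 and 3 they correlated at 0.46 and 0.43, and between number 1 and the others at -0.67 to -0.62. These values mainly set number 1 apart. Deviations from a mean of 3 sum to 0, so negative values are partly built in. The script was tested on simulated counts. The authors' deposited comparison table lists log2 fold changes and q-values and served as a check only. Among the 11157 genes tested here, 1908 had a q-value of the authors under 0.05, 960 higher and 948 lower in SUR. All 1908 were called here in the same direction. The authors' q-values of genes not tested here were not counted.

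Genes were named by rule: the pyroptosis genes Il1b, Il18, Nlrp3, Casp1, Casp4, Pycard and Gsdmd; the 15 largest rises and falls at a mean log2 CPM of 4 or more without overlap; up to 6 members of each list, by size of change; and the 10 most abundant calls of at least 2-fold. The comparison, its gene lists and this rule were chosen with earlier results of these data known. Promoters came from RefSeq (GRCm38.p6), and gene coordinates from the deposited table. Alternatives were fits without the block, with CON, with other scalings or filters, with DESeq2 1.42.0, with limma 3.58.1 (voom, and log2 of the deposited FPKM plus 0.1 or 1), and without each replicate. The authors' deposited FPKM was used only there, and their deposited TPM, scaled for length and depth per the file headers, was not used. Results for some genes are not reported here.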

Additional observations from a re-analysis of the deposited data

How the results depend on the processing

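Without the replicate block, 890 genes were higher and 798 lower, and 482 of the 577 genes called at least 2-fold were still called with the same sign, at any fold (83.5%). Among the genes named above, leaving out the block changed no calls other than those given there. DESeq2 gave 1535 and 1853, with 513 of the 577 called likewise (88.9%). Upper-quartile scaling gave 4064 higher and 1695 lower and moved the median of all genes by 0.0874; log2(FPKM + 0.1) gave 4710 and 1162 and moved it by 0.136; log2(FPKM + 1) gave 4700 and 1161, and 91 and 190 at least 2-fold. Under each other alternative at least 92.4% of the 577 were still called with the same sign, at any fold, and no sign turned. Leaving out 1 replicate number at a time gave 2305 to 2674 higher and 2378 to 2745 lower genes, and 281 to 338 and 279 to 309 at least 2-fold. The counts of at least 2-fold falls in the cytokine, chemokine, NF-kappaB, interferon-stimulated and immediate-early lists, and of rises among FoxO and MondoA targets, stayed within 1.5 times under all alternatives. Log2 fold changes turned above 0 for Bst2 (0.070, 0.15 and 0.15) and Gsdmd (0.034, 0.078 and 0.076) under upper-quartile scaling, log2(FPKM + 0.1) and log2(FPKM + 1), and for Casp1 (0.022 and 0.021) on both FPKM scales, where Bst2 was called higher (adjusted p = 0.037 and 0.0389). Leaving out 1 number at a time gave -0.058 to 0.055 for Bst2 and -0.66 to 0.27 for Il10. Without replicate 1, Pycard was called higher (log2 fold change 0.23, adjusted p = 0.0427). The cause was not tested. With 3 libraries a group, calls of small differences depend on the block and the scaling, and genes such as Il10 or Ccl22, at about 1 CPM, rest on few counts.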
